A study of Mus musculus with 12 samples.

Results

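The cardiac fibroblast markers examined here were 10 genes, found by their symbols in GENCODE M21 among the 26921 genes of the count table. All 10 of the 10 symbols had a row. RNA-seq had been performed on left ventricular tissue from 16-week-old mice, with 6 WT and 6 cmGch1 KO libraries. The WT mice were Gch1 flox/flox littermates without Cre. The cmGch1 KO mice were Gch1 flox/flox and carried a heterozygous Cre recombinase under the cardiomyocyte promoter of α-myosin heavy chain (α-MHC), so the loxP sites flanking part of Gch1 were present in both genotypes and the Cre transgene in only the cmGch1 KO. Deletion of Gch1 and presence of Cre therefore cannot be told apart in these libraries. Gch1 encodes GTP cyclohydrolase 1, the rate-limiting enzyme of tetrahydrobiopterin synthesis.

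Fibroblasts lie between the cardiomyocytes and make and maintain the collagen and elastic matrix of the ventricle. Most arise from the epicardium during development, where the transcription factor Tcf21 is needed for them to form, and the adult cells keep Pdgfra on their surface. When activated, for instance after injury, they take on contractile and matrix-secreting features, including smooth muscle actin (Acta2). The α-MHC promoter is a cardiomyocyte promoter, and in whole ventricular tissue fibroblast transcripts are read among the far more abundant ones of cardiomyocytes.

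The markers fall into groups by role. Tcf21 (chromosome 10, 22817281 to 22820174, minus strand) is a basic helix-loop-helix transcription factor. Pdgfra (chromosome 5, 75152292 to 75198215, plus strand) is a receptor for platelet-derived growth factor, and Ddr2 (chromosome 1, 169972307 to 170110762, minus strand) is a receptor tyrosine kinase activated by collagen. Dcn (chromosome 10, 97479609 to 97518143, plus strand) and Lum (chromosome 10, 97565128 to 97572703, plus strand) encode decorin and lumican, neighbouring genes for small leucine-rich proteoglycans that bind collagen fibrils. Dpt (chromosome 1, 164796644 to 164824266, plus strand) encodes dermatopontin, a matrix protein that binds decorin. Mfap4 (chromosome 11, 61485431 to 61488900, plus strand) and Mfap5 (chromosome 6, 122505845 to 122529290, plus strand) encode proteins of microfibrils and elastic fibres. Gsn (chromosome 2, 35256380 to 35307892, plus strand) encodes gelsolin, which severs actin filaments. Pi16 (chromosome 17, 29317680 to 29330593, plus strand) encodes a peptidase inhibitor that marks fibroblasts around vessels. Positions are those of GRCm38. Exons of Mfap4 and Ddr2 overlap those of genes on the opposite strand (Mapk7 and 3110045C21Rik) by 89 and 90 bp, and whether the counting used strand is not given in the sources used here.

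Depth ranged from 19921398 counts in cmGch1 KO replicate 2 to 37917806 in WT replicate 4. Gch1 itself fell from 10.7 ± 0.979 cpm (SD, n = 6) in WT to 5.51 ± 0.859 cpm in cmGch1 KO (log2 fold change -0.96, SE 0.11, BH-adjusted p = 6.88e-04 by the edgeR quasi-likelihood test). Levels are in cpm, read counts brought to a common library size with TMM factors. The cmGch1 KO replicates 2 and 3 stood apart. Xist was at 87.1 and 99.6 cpm in them and at or below 0.235 cpm in the other 10 libraries, and the summed level of 4 Y-linked genes was 0 in them and between 168 and 193 cpm elsewhere. Mitochondrial transcripts held 14.9% and 16.1% of their counts, against 18.3% to 22.9% elsewhere. The labels do not state the sex of the animals. By these genes replicates 2 and 3 read as female, and the other 10 libraries, with all 6 WT, as male. The paper states that its mice were matched for sex. Sex and genotype are thus in part confounded over the 12 libraries. The genotype differences of the markers, and of the other genes called, are therefore also given without these 2 libraries, among libraries that read as male. Gch1 was at a log2 fold change of -0.997 without them.

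None of the 10 markers differed between genotypes past a threshold of 0.05 on the p-value of the edgeR quasi-likelihood test, adjusted over 11225 tested genes by the method of Benjamini and Hochberg (BH). DESeq2, and limma on the deposited normalized values, also called 0 of the 10. The background was 1.12% of all tested genes called, with 0.445% lower and 0.677% higher in cmGch1 KO. Each marker was above 3 cpm in all 12 libraries, so none was lost to the filter on low counts. The fitted log2 fold change (cmGch1 KO minus WT) was above 0 for 9 of the 10 and below 0 for Ddr2, and its median over the markers was 0.17 against -0.01 over all tested genes, of which 53.3% were below 0. Tcf21 alone, higher in cmGch1 KO, had an unadjusted p under 0.05, a level that 11.5% of all tested genes reached by edgeR, 4.51% on the lower and 7.01% on the higher side. For every marker the ranges of the genotypes overlapped, as they did for all but 1.87% of tested genes. In bulk tissue, a change in the number of fibroblasts and a change in RNA per fibroblast cannot be told apart.

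**Figure D1:**
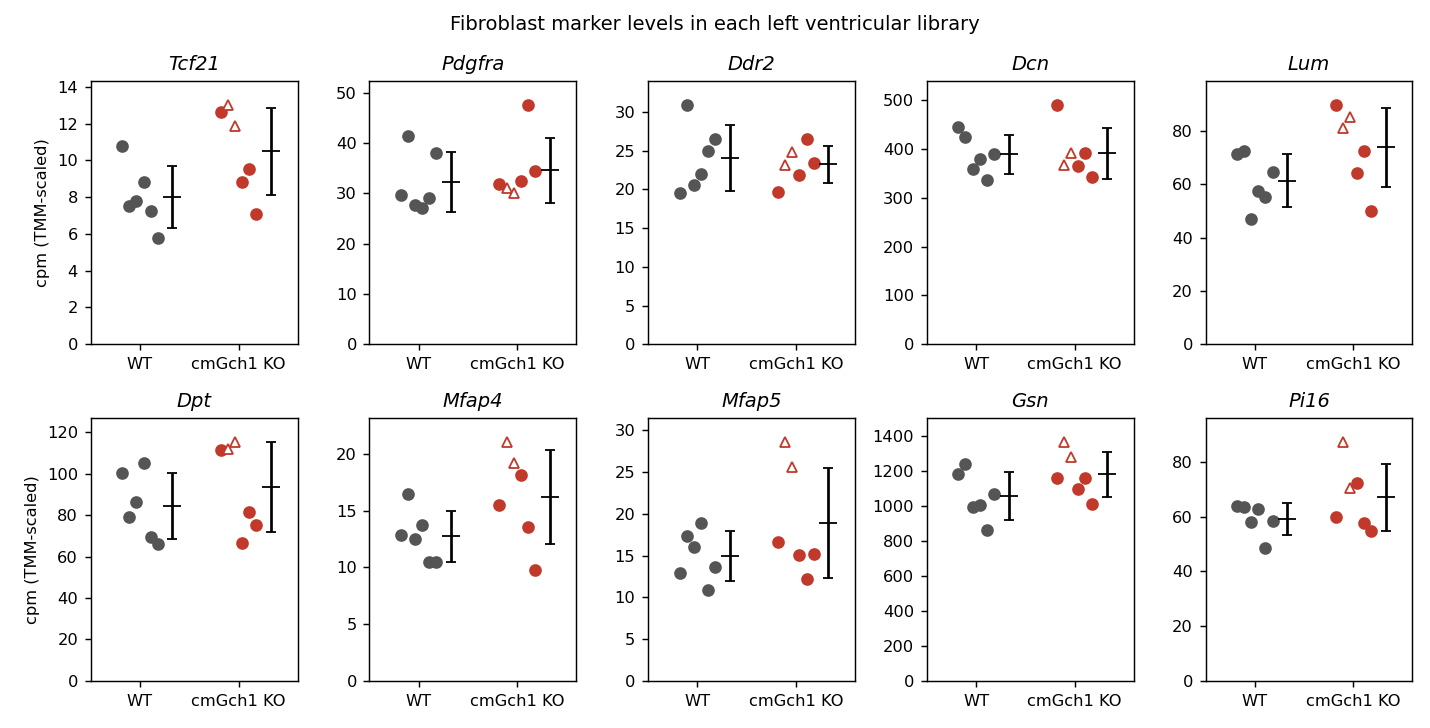
Level of each fibroblast marker in cpm (TMM-scaled, linear axis from 0), with 1 point per library and the mean and SD of each genotype beside the points. Open triangles are cmGch1 KO replicates 2 and 3, which hold the 2 highest values of Dpt, Mfap4, Mfap5 and Gsn, and the WT and cmGch1 KO points overlap in every panel.

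Tcf21, the transcription factor of the set, was at 5.78 cpm in the lowest, 7.66 at the median and 10.8 in the highest WT library. In cmGch1 KO it was at 7.10, 10.7 and 13.0 cpm. Its 3 highest values of the 12 were all in cmGch1 KO (13.0, 12.6 and 11.9 cpm in replicates 2, 1 and 3), but the other 3 cmGch1 KO libraries lay within the WT range. The log2 fold change was 0.38 (SE 0.17, 95% interval 0.02 to 0.74, unadjusted p = 0.0395, BH-adjusted p = 0.393 by the edgeR quasi-likelihood test). No other marker had a larger fitted difference, and Tcf21 did not pass the test.

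Among the receptors, Pdgfra ranged from 27.1 to 41.3 cpm in WT with a median of 29.4, and from 30.0 to 47.5 cpm in cmGch1 KO with a median of 32.1. A single library, cmGch1 KO replicate 5 at 47.5 cpm, exceeded all WT libraries. Pdgfra had a log2 fold change of 0.10 (SE 0.13, 95% interval -0.18 to 0.39). Leaving that library out took it to -0.01. Ddr2 ranged from 19.6 to 30.9 cpm in WT, median 23.5, and from 19.7 to 26.5 cpm in cmGch1 KO, median 23.3. All 6 cmGch1 KO values of Ddr2 lay inside the WT range. Its log2 fold change was -0.05 (SE 0.11, 95% interval -0.29 to 0.19), the only fitted value below 0 among the markers.

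Decorin and lumican sit side by side on chromosome 10 but had unlike fitted differences. Dcn was at 336 cpm in the lowest, 384 at the median and 445 in the highest WT library, and at 342, 379 and 490 cpm in cmGch1 KO. The genotypes had nearly the same means, 389 ± 40.5 and 391 ± 51.8 cpm (SD, n = 6 each), and the log2 fold change of Dcn was 0.01 (SE 0.09, 95% interval -0.19 to 0.21). Lum was at 47.1, 60.9 and 72.6 cpm in WT, and at 49.9, 76.8 and 89.7 cpm in cmGch1 KO. For Lum 4 of 6 cmGch1 KO libraries lay above all WT libraries, 1 of them (replicate 5) by less than 0.01 cpm, while replicate 6 was lower than all but 1 WT library. For Lum the log2 fold change was 0.27 (SE 0.14, 95% interval -0.04 to 0.57, BH-adjusted p = 0.524 by the edgeR quasi-likelihood test). The difference between the 2 genes' fold changes was not tested.

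Dermatopontin and the microfibril proteins were the markers in which cmGch1 KO replicates 2 and 3 weighed most. Dpt ranged from 66.3 to 105 cpm in WT with a median of 82.6, and from 66.5 to 116 cpm in cmGch1 KO with a median of 96.4. The cmGch1 KO libraries of Dpt formed a high set of 3 at 111, 112 and 116 cpm and a lower set of 3 between 66.5 and 81.4 cpm. For Dpt the log2 fold change was 0.15 (SE 0.16, 95% interval -0.19 to 0.49). Mfap5 ranged from 10.9 to 19.0 cpm in WT, median 14.8, and from 12.2 to 28.6 cpm in cmGch1 KO, median 15.9. Replicates 2 and 3 were at 28.6 and 25.6 cpm, and the other 4 cmGch1 KO libraries, between 12.2 and 16.7 cpm, lay inside the WT range. Mfap5 had a log2 fold change of 0.33 (SE 0.20), with the widest interval of the 10 markers (-0.10 to 0.77). Mfap4 ranged from 10.4 to 16.5 cpm in WT, median 12.7, and from 9.79 to 21.1 cpm in cmGch1 KO, median 16.8. Its 3 highest values were in cmGch1 KO replicates 2, 3 and 4 and its lowest in cmGch1 KO replicate 6. The log2 fold change of Mfap4 was 0.34 (SE 0.17, unadjusted p = 0.0630, BH-adjusted p = 0.477 by the edgeR quasi-likelihood test).

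Gelsolin, expressed well beyond fibroblasts, was the most abundant of the markers. Gsn ranged from 866 to 1244 cpm in WT, median 1038, and from 1015 to 1370 cpm in cmGch1 KO, median 1164. Only replicates 2 and 3 exceeded the WT range, and the log2 fold change of Gsn was 0.16 (SE 0.10, 95% interval -0.05 to 0.36). Pi16 ranged from 48.6 to 64.1 cpm in WT, median 60.5, and from 54.7 to 87.4 cpm in cmGch1 KO, median 65.1. Replicate 2 was highest, with replicates 4 and 3 next at 72.5 and 70.4 cpm, and the other 3 lay inside the WT range. The log2 fold change of Pi16 was 0.18 (SE 0.11, 95% interval -0.06 to 0.42).

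Without cmGch1 KO replicates 2 and 3 the median log2 fold change of the markers was 0.05, with 7 of 10 above 0, and no marker had an unadjusted p below 0.05. The mean of Mfap5 over the remaining 4 cmGch1 KO libraries was 14.8 cpm, against 14.9 cpm in WT and 27.1 cpm in the 2 libraries left out. For Dpt the same 3 means were 83.6, 84.4 and 114 cpm, and for Pi16 they were 61.2, 59.2 and 78.9 cpm. The log2 fold change changed sign for Mfap5 (-0.02) and Dpt (-0.02), fell to 0.05 for Pi16, and was 0.06 for Gsn, 0.16 for Mfap4, 0.17 for Lum and 0.24 for Tcf21. Pdgfra went the other way, with a mean of 36.5 cpm in the remaining 4 libraries, above the 30.5 cpm of replicates 2 and 3. Replicates 2 and 3 differed from the rest in Xist, Y-linked genes and the share of mitochondrial transcripts together, and the part of each in these levels was not tested.

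**Figure D2:**
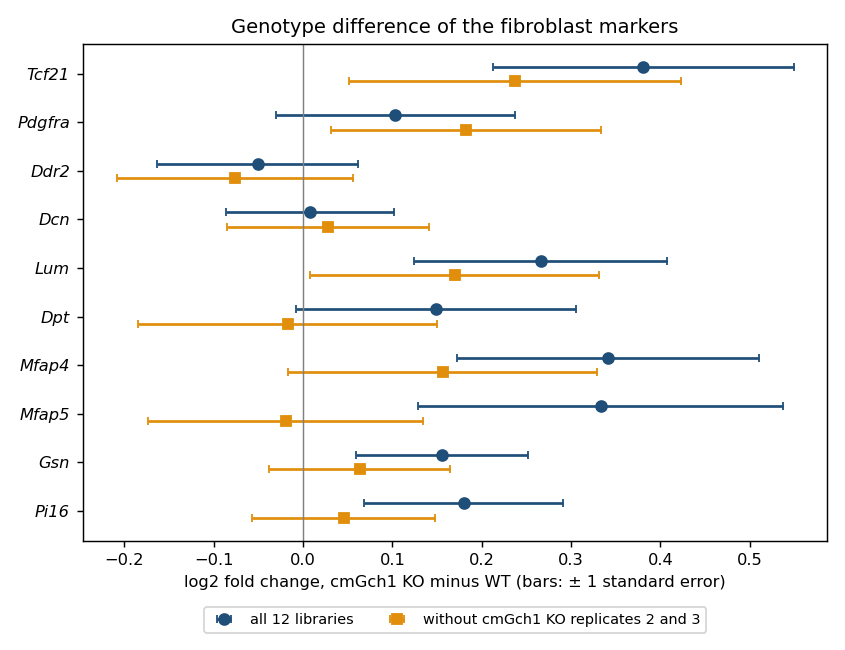
Fitted log2 fold change (cmGch1 KO minus WT, x axis) of each marker with bars of 1 standard error, over all 12 libraries (circles) and without cmGch1 KO replicates 2 and 3 (squares). The squares of Mfap5 and Dpt lie at -0.02, where the circles lie at 0.33 and 0.15, and Tcf21 has the largest value in both fits.

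Levels between markers were compared as cpm per kb of combined exon length, averaged over the 12 libraries. In this measure the order ran from Gsn (355) through Dcn (66.8), Dpt (51.6), Lum (27.6), Pi16 (9.93), Mfap4 (7.53), Mfap5 (4.72), Tcf21 (3.94) and Pdgfra (3.33) to Ddr2 (2.56). In these means the secreted matrix proteins stood above the surface receptors and the transcription factor. Most neighbours kept their order in 12 of 12 libraries. Dcn was above Dpt in only 10 libraries, Mfap5 above Tcf21 in 8 and Tcf21 above Pdgfra in 8, so these neighbours did not separate beyond their spread.

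The markers also differed in how much they varied among mice of a genotype. The SD of log2 cpm within genotypes was 0.40 for Mfap5, a spread larger than that of 94.8% of tested genes, but this was 0.48 in cmGch1 KO, where replicates 2 and 3 stood apart, and 0.30 in WT, as for Tcf21 in WT (0.30). Over both genotypes it was 0.33 for Mfap4, 0.32 for Tcf21 and 0.31 for Dpt. It was 0.28 for Lum, 0.25 for Pdgfra, 0.21 for Pi16 and 0.20 for Ddr2. Dcn and Gsn were the steadiest at 0.17 each, below the median of 0.19 over all tested genes. The abundant matrix and cytoskeletal genes Dcn and Gsn were thus measured with a tighter error than Mfap5, for which the 95% interval still reached 0.77 on the log2 scale.

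With the genotype means removed, the markers moved together over the 12 libraries in part. Of the 45 pairs of markers, 21 had a Pearson r over 0.5 and 9 had one below 0, and the median was 0.47. All values of r are descriptions, since levels in a library share its depth, its piece of tissue and its composition. The strongest pairs were Dpt with Tcf21 (0.88), Mfap4 with Pi16 (0.84), Dcn with Lum (0.77), Lum with Gsn (0.76) and Gsn and Mfap5 each with Pi16 (0.75 for both). Gsn followed the mean of the other 9 markers most closely (0.89), followed by Mfap4 (0.79) and Lum (0.76). The receptors stood outside this group. Pdgfra and Ddr2 had r of -0.17 and -0.02 with the mean of the other 9, and 0.73 with each other, and Pdgfra had an r of -0.48 with Dpt. Several markers also moved with the share of mitochondrial counts, with r of -0.75 for Mfap5, -0.68 for Pi16, -0.66 for Gsn, -0.65 for Dpt and -0.57 for Tcf21. This share was lowest in cmGch1 KO replicates 2 and 3 (14.9% and 16.1%), and its r values were not computed without them. The part of the mitochondrial share in the covariation was not tested. Without cmGch1 KO replicates 2 and 3 the median over the pairs was 0.33 and 15 pairs were over 0.5. Of the pairs named, Mfap5 with Pi16 was then at 0.51 and Gsn with Pi16 at 0.63, while Dcn with Lum was at 0.90 and Pdgfra with Ddr2 at 0.85.

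**Figure D3:**
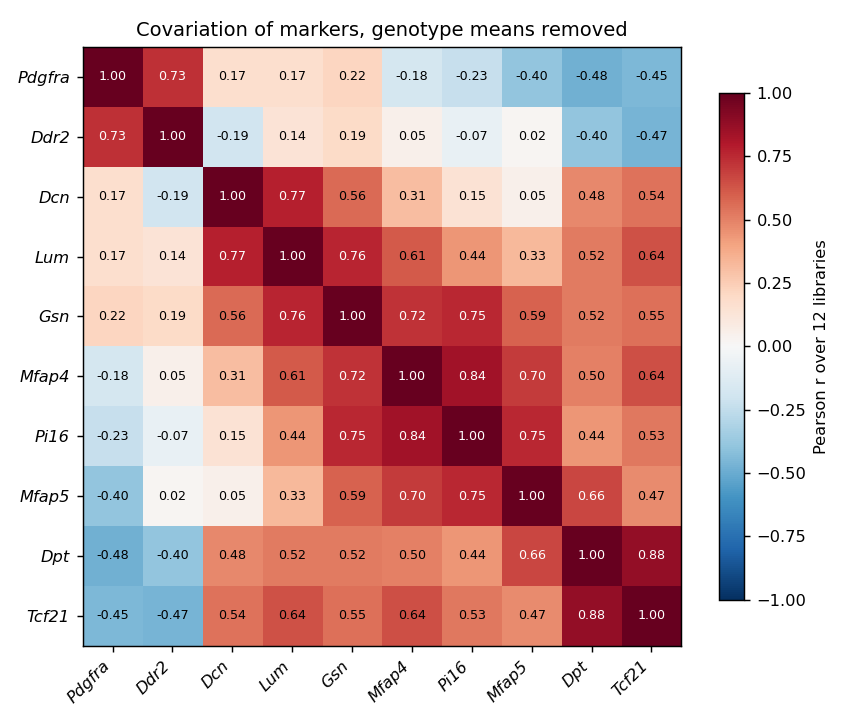
Pearson r between log2 cpm of each pair of markers over 12 libraries with the genotype means removed, from -1 (blue) to 1 (red). Pdgfra and Ddr2 (r = 0.73) form a block of their own at the top left, and Dpt and Tcf21 (r = 0.88) form another at the bottom right.

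The receptors differed from the other markers in transcript length. Pdgfra and Ddr2 have the longest combined exons of the set, 10024 and 9264 bp, while Dpt and Tcf21 have 1724 and 2349 bp. Over the libraries the mean of the 2164 tested genes with over 8000 bp of exon had an r of 0.72 with Pdgfra and 0.80 with Ddr2, and of -0.84 with both Dpt and Tcf21. The other 6 markers lay between -0.43 and -0.25 and did not follow length among themselves, as Mfap4 (1922 bp) and Lum (2448 bp) were at -0.34 and -0.32 and Dcn (5838 bp) and Pi16 (6364 bp) at -0.43 and -0.39. Of the 2208 tested genes under 2500 bp, none of which entered this mean, the median r was -0.70 and 37.1% were under -0.8. Of the 2164 long genes, which made up this mean and included Pdgfra and Ddr2, the median r was 0.70 and 49.8% were over 0.7. With the mean of the long genes removed from each marker, the pair Pdgfra and Ddr2 had an r of 0.36 in place of 0.73, Pdgfra and Dpt had 0.32 in place of -0.48, and Ddr2 and Tcf21 had 0.65 in place of -0.47. Dpt and Tcf21 had 0.60 in place of 0.88, below Dpt with Ddr2 and Mfap4 with Pi16 (0.82 each). Of the 45 pairs, 3 were then below 0 and 25 over 0.5. The mean of the long genes overlapped between genotypes, and what set it in each library was not tested. With it as a covariate, chosen after the data were seen, the log2 fold change of Tcf21 was 0.35 (SE 0.10, BH-adjusted p = 0.0655 by the edgeR quasi-likelihood test), and none of the 10 markers passed.

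**Figure D4:**
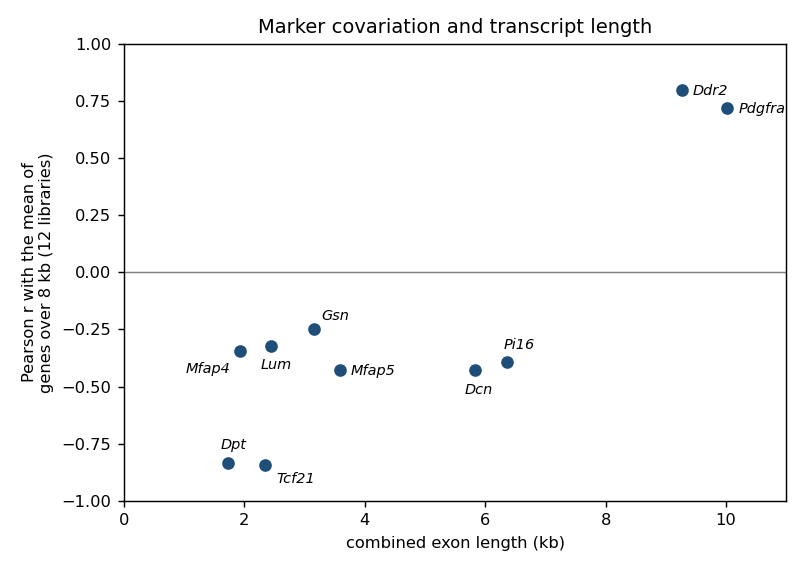
Combined exon length of each marker in kb (x axis) against its Pearson r over 12 libraries with the mean of the 2164 tested genes longer than 8 kb (y axis), genotype means removed. Pdgfra and Ddr2 lie above 0.7, Dpt and Tcf21 below -0.8 and the other 6 markers between -0.43 and -0.25.

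Sequence upstream of the start site is given for Dpt and Tcf21, the pair with the highest r, and for Pdgfra, which ran against them. Both hold for all 12 libraries before the mean of the long genes was removed. The sequences are from RefSeq on GRCm38.p6 and end before the first annotated exon. They read 5′ to 3′ on the strand of the gene, at chr1:164796413-164796643 (plus strand), chr10:22820175-22820393 (minus strand) and chr5:75152001-75152250 (plus strand). Capitals mark a match to 1 of 3 motifs searched on both strands, the E-box CAGCTG, the TATA box TATAAA and the GC box GGGCGG.
Dpt: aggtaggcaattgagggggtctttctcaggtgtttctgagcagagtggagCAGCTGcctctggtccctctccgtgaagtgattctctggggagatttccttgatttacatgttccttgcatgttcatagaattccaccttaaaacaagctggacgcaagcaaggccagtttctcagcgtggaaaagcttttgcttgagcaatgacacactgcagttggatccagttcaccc
Tcf21: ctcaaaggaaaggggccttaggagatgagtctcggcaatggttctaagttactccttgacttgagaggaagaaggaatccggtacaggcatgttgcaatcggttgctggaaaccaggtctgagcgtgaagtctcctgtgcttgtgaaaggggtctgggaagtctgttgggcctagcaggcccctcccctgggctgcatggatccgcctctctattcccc
Pdgfra: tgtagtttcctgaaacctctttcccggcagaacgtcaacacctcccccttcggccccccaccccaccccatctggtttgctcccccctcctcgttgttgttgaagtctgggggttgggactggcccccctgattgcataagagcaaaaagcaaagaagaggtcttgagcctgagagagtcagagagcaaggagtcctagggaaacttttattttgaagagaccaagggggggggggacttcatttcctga
The Dpt stretch held 1 E-box of this form, and those of Tcf21 and Pdgfra held none of the 3 motifs. In the 250 bases before the start of all 32851 listed promoters, 13.0% held CAGCTG, 12.4% TATAAA and 32.7% GGGCGG, so a match or its lack is common. Promoters of Gsn, Pi16 and Ddr2 are also listed but are not printed. Promoters of Dcn, Lum, Mfap4 and Mfap5 were not searched.

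Outside the set, the 10 genes that followed the mean of the markers most closely over the 12 libraries were F13a1 (r = 0.92), Clec14a (0.91), Gdpgp1 (0.90), Fcrls, Lrrc42, Sox9 and Mgp (0.89 each), Plat (0.88), Pdpn (0.87) and Fstl1 (0.86). Over all 11215 genes compared, 0.294% had an r over 0.8. F13a1 encodes the A chain of coagulation factor XIII and is known from macrophages, Clec14a is an endothelial lectin, and Mgp and Fstl1 encode secreted proteins of mesenchymal cells. None of these 10 genes differed between genotypes past the threshold.

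Other genes known from fibroblasts were compared in the same fit. Of 33 further identity genes (collagens, fibulins, Pcolce and others), 32 were tested. By edgeR 1 rose and none fell, 8 had an unadjusted p under 0.05, all higher in cmGch1 KO, and 22 had a fitted value above 0, with a median log2 fold change of 0.11. Among all tested genes 7.01% had an unadjusted p under 0.05 on the higher side. By limma 1 and by DESeq2 3 of the 32 were called. The gene that rose by edgeR was Pcolce, which encodes an enhancer of procollagen C-proteinase. Pcolce ranged from 35.6 to 45.9 cpm in WT, median 40.2, and from 50.2 to 74.7 cpm in cmGch1 KO, median 54.8. The genotypes did not overlap for Pcolce, and its log2 fold change was 0.52 (SE 0.10, BH-adjusted p = 0.0160 by the edgeR quasi-likelihood test). Without cmGch1 KO replicates 2 and 3 the log2 fold change was 0.41 and no longer passed (BH-adjusted p = 0.0773 by the edgeR quasi-likelihood test). That fit had 4 cmGch1 KO libraries, and over all genes 16 rose and 18 fell in it, against 76 and 50 with all libraries.

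Of 18 genes of activated fibroblasts and myofibroblasts, 13 were tested, and all 13 had a fitted value above 0, with a median of 0.23. Of these 13, 2 rose, Ccn2 and Acta2, and 5 had an unadjusted p under 0.05. All 5 were higher in cmGch1 KO, a side on which 7.01% of all tested genes reached that level. Ccn2, a matricellular protein induced by mechanical load and TGFβ, was at 52.7 to 68.0 cpm in WT, median 57.6, and 79.8 to 134 cpm in cmGch1 KO, median 109. The genotypes did not overlap for Ccn2, with a log2 fold change of 0.88 (SE 0.10, BH-adjusted p = 6.88e-04 by the edgeR quasi-likelihood test). Without cmGch1 KO replicates 2 and 3 the log2 fold change of Ccn2 was 0.97 and still passed (BH-adjusted p = 6.75e-04 by the same test). Acta2, smooth muscle actin, was at 113 to 145 cpm in WT, median 121, and 163 to 243 cpm in cmGch1 KO, median 190. It did not overlap either (log2 fold change 0.66, SE 0.11, BH-adjusted p = 0.00672 by the edgeR quasi-likelihood test). Without replicates 2 and 3 the value of Acta2 was 0.51 and missed the threshold (BH-adjusted p = 0.0506 by the same test). Ccn2 and Acta2 are also expressed by cardiomyocytes and vascular smooth muscle respectively. The summed level of pericyte and smooth muscle markers was 3010 to 3209 cpm in WT and 3077 to 3673 cpm in cmGch1 KO, but most of this sum was Des, which cardiomyocytes also express. Of the 10 genes of that list 7 had a fitted value below 0. The other 3 were Des (0.18), Cspg4 (0.13) and Mustn1 (0.01). Among the 7 were the contractile smooth muscle genes Tagln (-0.40), Myh11 (-0.24) and Cnn1 (-0.21), named after their values were seen. Tagln, Myh11 and Cnn1 were not called, and their intervals included 0 (-0.82 to 0.03, -0.49 to 0.005 and -0.92 to 0.51). The part of smooth muscle in the level of Acta2 was not tested. Tnc and Timp1, looked at after their values were seen, were below the filter on low counts. Tnc ranged from 0.670 to 1.75 cpm in WT and from 1.44 to 10.3 cpm in cmGch1 KO, and Timp1 from 0.963 to 2.71 and from 2.47 to 16.7 cpm, with cmGch1 KO replicate 2 the highest for both. In a fit without the filter neither passed. Tnc was at a log2 fold change of 1.86 and Timp1 at 1.68 (BH-adjusted p = 0.0753 and 0.0921 by the edgeR quasi-likelihood test).

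The relatives of single markers were given as families. The share of all tested genes with an unadjusted p under 0.05 was 11.5% by edgeR. Beside Dcn and Lum, 7 of 11 further small leucine-rich proteoglycans were tested, none was called by edgeR or limma and 1 (Bgn) by DESeq2, the median log2 fold change was 0.06, and 2 had an unadjusted p under 0.05 (Bgn at 0.29, SE 0.08, and Prelp at 0.21, SE 0.09). Beside Mfap4 and Mfap5, 12 of 14 further microfibril and elastic fibre genes were tested with none called by edgeR, DESeq2 or limma and a median of 0.09, and Emilin1, Emilin2 and Fbn1 had an unadjusted p under 0.05 at 0.43, 0.38 and 0.27. Without cmGch1 KO replicate 2 alone Emilin1 was at 0.25, and without replicates 2 and 3 the values of Emilin1, Emilin2 and Fbn1 were 0.24, 0.25 and 0.23, those of Bgn and Prelp 0.23 and 0.21. Beside Pdgfra and Ddr2, 5 of 7 other genes of these ligands and receptors were tested, and edgeR and limma called 1 that rose and DESeq2 also called Pdgfd. The gene that rose was Ddr1, the discoidin domain receptor known mainly from epithelial cells, at 25.6 to 33.3 cpm in WT, median 29.5, and 35.0 to 52.9 cpm in cmGch1 KO, median 40.9. The genotypes did not overlap for Ddr1 (log2 fold change 0.53, SE 0.10, BH-adjusted p = 0.0158 by the edgeR quasi-likelihood test). Without replicates 2 and 3 its value of 0.40 missed the threshold (BH-adjusted p = 0.0841 by the same test). Pdgfd, a PDGF ligand named after its values were seen, ranged from 15.6 to 19.4 cpm in WT and from 11.9 to 15.5 cpm in cmGch1 KO without overlap, at a log2 fold change of -0.35 (SE 0.08, BH-adjusted p = 0.0638 by the edgeR quasi-likelihood test). Of the other gelsolin family genes 4 of 6 were tested, and of the partners and upstream regulators of Tcf21 11 of 14, with none called by edgeR, DESeq2 or limma, none at an unadjusted p under 0.05 and medians of 0.04 and 0.05.

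**Figure D5:**
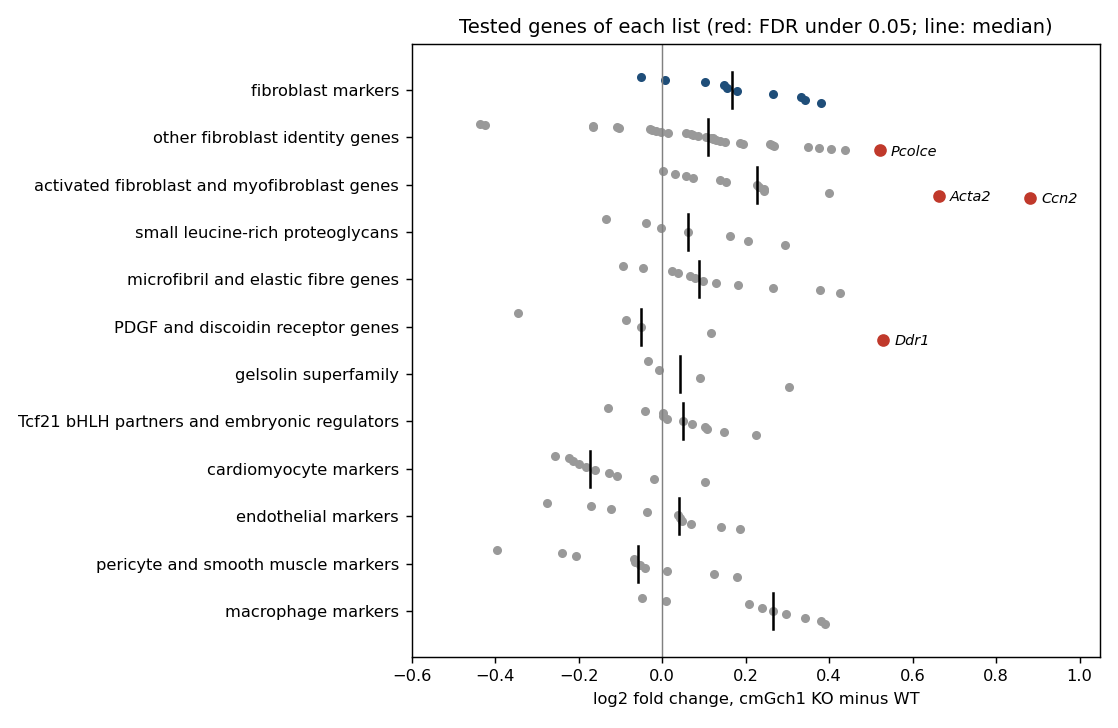
Fitted log2 fold change (cmGch1 KO minus WT, x axis) of each tested gene in 12 lists, with a line at the median of each list and genes called at an adjusted p under 0.05 in red. The called genes are Pcolce, Ccn2, Acta2 and Ddr1, and none is among the 10 fibroblast markers, whose median is 0.17.

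Markers of other cell types were measured in the same libraries, and none was called in the main edgeR fit or by DESeq2 or limma. The macrophage marker C1qc passed under 1 of the 10 other settings (BH-adjusted p = 0.0179 by the edgeR quasi-likelihood test). Of 9 tested macrophage markers 8 had a fitted value above 0 (median 0.27) and 7 had an unadjusted p under 0.05, among them Adgre1 at 0.38 (SE 0.12) and Cd68 at 0.39 (SE 0.14). All 7 were higher in cmGch1 KO, and 7.01% of all tested genes reached that level on the higher side (11.5% on either). The summed level of the macrophage markers was 188 to 242 cpm in WT and 229 to 279 cpm in cmGch1 KO. Without cmGch1 KO replicates 2 and 3 Adgre1 was at 0.31 and Cd68 at 0.27. Over the 12 libraries the mean of the fibroblast markers had an r of 0.77 with the mean of the pericyte and smooth muscle markers, 0.66 with that of the macrophage markers, 0.41 with that of the cardiomyocyte markers and 0.17 with that of the endothelial markers, genotype means removed. For the other fibroblast identity genes r was 0.67 and for the activated fibroblast genes 0.51. It was 0.13 for the proteoglycans and the gelsolin family, and 0.11 for the microfibril genes and the PDGF and discoidin receptor genes. For the partners and regulators of Tcf21 it was -0.57. These r values between lists were not computed without cmGch1 KO replicates 2 and 3. The 10 cardiomyocyte markers had 9 fitted values below 0, Actc1 at 0.10 and a median of -0.17, with none at an unadjusted p under 0.05 by edgeR. Their summed level was 76236 to 82778 cpm in WT and 69455 to 73992 cpm in cmGch1 KO, without overlap. For each of the 10 alone the genotypes overlapped. Myh6 and Mb had the highest means, 23171 and 13956 cpm in WT and 20406 and 11690 cpm in cmGch1 KO. How often such sums do not overlap was not tested. The 10 endothelial markers (median 0.04, Egfl7 at -0.28, and -0.23 without replicates 2 and 3) and the 10 pericyte and smooth muscle markers (median -0.06, Des at 0.18, and 0.16 without them) had 1 gene each at an unadjusted p under 0.05. No epicardial or mesothelial and no adipocyte marker passed the filter on low counts. The summed epicardial level was at most 9.77 cpm in any library. The part of these cell types in the levels of the fibroblast markers was not tested.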

How the data were processed

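RNA was extracted by the authors from left ventricular tissue, and paired-end dUTP libraries were counted with HISAT2, Picard and featureCounts on GRCm38; the annotation and strand setting are not given in the sources used here. The authors deposited raw counts per gene, used here, and normalized values on a log2 scale, used only as an alternative. Pdgfra also holds Mir7025 (same strand). Of the 26921 identifiers, 26582 (98.7%) were matched to GENCODE M21, which gave symbols, positions and exon lengths.

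Genotypes came from the labels. Genes exceeding 3 cpm in 6 or more libraries were tested with edgeR 4.0.16 (TMM, quasi-likelihood, R 4.3.3), with Benjamini-Hochberg adjustment over all tested genes and a threshold of 0.05. The study states edgeR, this cpm minimum and this threshold. It does not state how many libraries had to exceed the minimum or which edgeR test was used. It reported more genes called in each direction than the 50 lower and 76 higher here. Intervals are 95%. Correlations used log2 cpm with a prior count of 2. The fit was tested on simulated data. Alternatives included DESeq2 1.42.0 and limma 3.58.1. The markers and lists were chosen with earlier results of these data known. Genes named were the 10 markers, list genes called (or, in lists with none, at an unadjusted p under 0.05, at most 4 a list) and the 10 genes most like the markers. The chi-square per degree of freedom between libraries of a genotype was at least 12.5 over 30 pairs, so none was a repeat of another.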

Additional observations from a re-analysis of the deposited data

Results flagged for a closer look

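Among 52 groups of 6 libraries examined for a single library far from the others, 5 had one. Chance alone gives about 5% of groups such a library. Pdgfra was at 47.5 cpm in cmGch1 KO replicate 5, with the next library at 34.4 cpm, and Dcn was at 490.0 cpm in cmGch1 KO replicate 1, with the next at 391 cpm. For neither marker did the remaining cmGch1 KO libraries leave the WT range. In cmGch1 KO replicate 2, Pcolce was at 74.7 cpm with the next library at 58.8 cpm, and Emilin1 was at 66.2 cpm with the next at 39.0 cpm. Egfl7, an endothelial marker, was at 87.1 cpm in cmGch1 KO replicate 1 with the next library at 68.8 cpm.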

How the results depend on the processing

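No marker was called under any of 10 other settings or when any single library was left out. The direction of a marker changed in 8 of 100 fits under the other settings. These were Dcn without a filter on low counts (-0.010), with the deposited normalized values in limma (-0.0035) and with the mean of long genes as a covariate (-0.0033), Ddr2 with library size alone for scaling (0.026), and Dpt and Mfap5 with sex-linked expression as a covariate (-0.0034 and -0.0011) and without cmGch1 KO replicates 2 and 3 (-0.017 and -0.020). Library size alone also moved the median of all genes from -0.01 to 0.07 and that of the markers to 0.25. Leaving out 1 library changed a direction in 5 of 120 fits. Pdgfra then ranged from -0.012 (without cmGch1 KO replicate 5) to 0.19, Dcn from -0.067 (without cmGch1 KO replicate 1) to 0.051 and Ddr2 from -0.10 to 0.034 (without WT replicate 2).

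The counts of called genes moved more. Of the other fibroblast genes, 4 rose and 0 fell. With sex-linked expression as a covariate 2 rose, with DESeq2 7 rose and 1 fell, without cmGch1 KO replicates 2 and 3 1 rose, and with the mean of long genes as a covariate, chosen after seeing the data, 8 rose and 1 fell. Leaving out 1 library gave 2 (without WT replicate 3 or cmGch1 KO replicate 3) to 6 (without cmGch1 KO replicate 1) that rose and 0 to 1 that fell. Pcolce missed the threshold without WT replicate 3, WT replicate 5 or cmGch1 KO replicate 3 (0.51, 0.49 and 0.52), and Ddr1 without WT replicate 3 or cmGch1 KO replicate 3 (0.52 and 0.50). Bgn and Emilin2 passed without cmGch1 KO replicate 1 (0.34 and 0.50). Over all genes 76 rose and 50 fell. In the same order of settings 41 rose and 24 fell, 218 rose and 155 fell, 16 rose and 18 fell, and 270 rose and 306 fell, while 116 rose with library size alone. Leaving out 1 library gave 44 (without WT replicate 3, WT replicate 5 or cmGch1 KO replicate 3) to 111 that rose, with 48 without cmGch1 KO replicate 2, and 28 (without WT replicate 3) to 96 (without cmGch1 KO replicate 1) that fell, with 29 and 33 without WT replicates 5 and 4. Why these counts moved was not tested.

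The labels do not state whether libraries of the same number belong together. Their deviations had a correlation from -0.13 to 0.68, and 3 of 6 WT libraries correlated best with their own number. Whether the numbers mark a pairing was not tested. A replicate block called no marker, gave 112 genes that rose and 76 that fell, and added Pcolce2, named after its values were seen, to the other fibroblast genes called. With the block the lowest BH-adjusted p among the markers were 0.121 for Mfap4 and 0.128 for Tcf21 by the edgeR quasi-likelihood test. Mfap4 was then at 0.33 (SE 0.09), Tcf21 at 0.38 (SE 0.11) and Mfap5 at 0.30 (SE 0.13). In the main fit, which had no block, the interval of Mfap5 held a log2 difference of 0.77, and that of Dcn none over 0.21.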
